A study of Mus musculus with 4 samples.

Results

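Somatotropes, the growth hormone cells of the anterior pituitary, were taken from 2 single-nucleus RNA-seq libraries of mouse pituitary glands, labelled 5-month males and 5-month females. A nucleus was counted as a somatotrope when it held at least 500 genes, under 5% mitochondrial UMIs (unique transcript counts), at least 1 UMI of Ghrhr or Pappa2, at least 1 UMI in 3 or more of the 9 genes Ghrhr, Pappa2, Pappa, Corin, Dnah9, Mmp27, Mmp8, Wscd2 and Sdk2, and more UMIs of growth hormone (Gh) than of prolactin (Prl). This rule took 1671 of 7999 nuclei in the library labelled 5-month males and 1387 of 7420 in the library labelled 5-month females, 3058 of 15419 together, out of 35615 nuclei in all 4 libraries of the series. The same conditions, applied to libraries the rule did not name, took 1477 of 12066 nuclei labelled 22-month males and 1120 of 8130 labelled 22-month females. Values of 4 libraries are given below in the order 5-month males, 5-month females, 22-month males, 22-month females, as labelled.

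All mice were wild-type UM-HET3, a genetically heterogeneous stock bred from several inbred strains, and the labels name no treatment. Each library pooled the nuclei of 3 snap-frozen glands, was prepared with the 10x Genomics nuclei kit and 3′ chemistry, and aimed at 10000 nuclei. Each labelled group is 1 library, so a spread between mice could not be measured. The p-values below measure only the spread between pools of 1 labelled age, which also differ in labelled sex. The libraries held 33328821 to 65773807 UMIs, and the somatotropes 8751038 to 10365798 per library. The median somatotrope held 4882, 5464, 5465 and 6086.5 UMIs, against 3324 to 4799 in the remaining nuclei.

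The sex-chromosome transcripts went against 2 of the labels, so every group is named here as its library was labelled. A UMI from the Y chromosome (Kdm5d, Ddx3y, Eif2s3y or Uty) was found in 91.7% and 92.4% of the somatotropes of the libraries labelled 5-month, and in 0% and 0.446% of those labelled 22-month. Xist, the RNA of the inactive X chromosome, was counted in 0.0598%, 0.0721%, 97.0% and 97.1% of somatotropes. Both libraries labelled 5-month therefore carried Y-linked transcripts and both labelled 22-month carried Xist. Labelled age and sex chromosomes cannot be told apart in any comparison between these pairs of libraries. If the labels of the libraries 5-month females and 22-month males had been exchanged, which the files do not settle, each pair would hold 1 library of each age, and the values by labelled age below would be differences by sex.

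Somatotropes make growth hormone under the drive of growth hormone-releasing hormone, which acts through its receptor Ghrhr, the stimulatory G protein and cyclic AMP, and they are held back by somatostatin. Growth hormone acts largely through insulin-like growth factor 1, which feeds back on the gland. The transcription factor POU1F1 is needed for the somatotrope, lactotrope and thyrotrope lineages, and Pappa and Pappa2 encode proteases that release insulin-like growth factors from their binding proteins.

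In the libraries labelled 5-month, somatotropes made up 20.9% (males) and 18.7% (females) of the nuclei, with exact binomial (Clopper-Pearson) 95% intervals of 20.004 to 21.8 and 17.8 to 19.6. They made up 12.2% (11.7 to 12.8) and 13.8% (13.03 to 14.5) of the nuclei labelled 22-month. Such intervals cover counting error only. Because the rule asks for UMIs of weakly expressed genes, the share moves with depth. With each nucleus thinned to 2000 UMIs the shares were 7.32%, 6.19%, 3.98% and 4.71%. Gh in the nuclei just outside the rule was close to that just inside: nuclei with 2 of the 9 genes that met every other condition numbered 729 and 486 in the libraries labelled 5-month and had a median of 20.7% and 14.5% of their UMIs from Gh, against 20.4% and 13.46% in the 703 and 537 members with 3 of the 9. The condition on prolactin removed only 1 and 2 nuclei in the libraries labelled 5-month, and 255 and 124 in those labelled 22-month. The members are thus the part of the Gh-rich nuclei with UMIs of more of the 9 genes.

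The label somatotrope was checked against its markers. The rule used Gh, Prl and the 9 genes, so their values are a description. Gh made up a median of 19.8%, 12.7%, 12.5% and 9.82% of the UMIs of a member, and its 10th and 90th percentiles were 9.68% and 33.6% in the library labelled 5-month males and 5.80% and 25.1% in the library labelled 5-month females. Gh transcripts were also counted in nuclei of cells that do not make the hormone: macrophage nuclei (at least 2 of Csf1r, Mrc1, C1qa and Ptprc and by definition none of the 9 genes, in 36, 42, 99 and 90 nuclei with medians of 1982 to 2536.5 UMIs) had a median of 6.62%, 3.96%, 3.06% and 1.72%. Lactotropes, the prolactin cells, had 3.09%, 1.83%, 1.57% and 0.805%. They were taken by a Drd2 UMI, Prl above every other hormone gene and no Ghrhr or Pappa2 UMI. Gh was higher in members than in these classes in every library. Members needed Gh above Prl and lactotropes Prl above Gh, so the gap to lactotropes was partly set by definition and is no check. Both members and macrophage nuclei had their highest Gh in the library labelled 5-month males.

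Prolactin, which the rule held below Gh in members, ranked the libraries in the same order in members and in macrophage nuclei. It made up a median of 0.596%, 0.320%, 4.11% and 1.65% of a member's UMIs, below the 1.44%, 0.624%, 8.21% and 3.55% of the macrophage nuclei in each library. The 3 lactotrope markers Prl, Drd2 and Esr1 summed to 8853, 6042, 40626 and 20671 CPM (counts scaled to the same total in each sum) in members and to 20773, 7543, 71587 and 34984 in macrophage nuclei. In the macrophage sums 1 UMI made 9.75, 8.31, 2.86 and 3.09 CPM, so small values there are 1 or a few UMIs. In the lactotrope sums labelled 5-month it made 0.620 and 0.621 CPM. Corticotrope markers summed to 3919, 4162, 4573 and 1340 CPM, mostly the hormone precursor Pomc, again below the macrophage nuclei. Macrophage markers reached only 12.0 to 23.3 CPM in members, stem cell markers (Sox2, Sox9, Aldh1a2) 7.199 to 12.5 and endothelial markers 7.64 to 14.3. Thyrotrope markers summed to 157, 157, 84.2 and 117 CPM in members and to 117, 166, 132 and 102 in macrophage nuclei, and gonadotrope markers to 85.3, 109, 77.1 and 41.5 in members. What part these transcripts had in the results below was not tested. Scrublet, a doublet caller, marked 16.1% and 21.0% of the members in the libraries labelled 5-month, and 7.92% and 7.99% of the other nuclei. These called nuclei were kept, as the rule has no doublet condition, and the main results are also given without them.

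**Figure D1:**
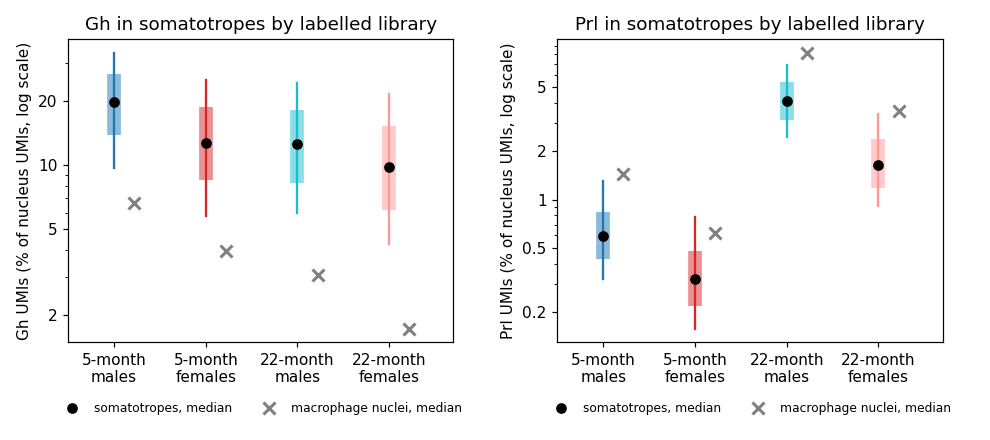
Share of UMIs from Gh (left) and Prl (right) in somatotropes of each labelled library, on log axes in percent of a nucleus's UMIs. Black dots are medians over nuclei, thick bars span the middle 50% and thin lines the 10th to 90th percentile of nuclei, and grey crosses are the medians of macrophage nuclei; Gh medians of 19.8%, 12.7%, 12.5% and 9.82% lie above the crosses and Prl medians of 0.596%, 0.320%, 4.11% and 1.65% below them.

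The 9 genes of the rule are given as a description, since they chose the nuclei. Ghrhr, the receptor for the releasing hormone, stood at 257, 194, 203 and 187 CPM of the summed counts. Pappa2 stood at 290, 187, 275 and 341 CPM, and Pappa at 96.8, 77.3, 93.9 and 109. Corin, a transmembrane protease that activates natriuretic peptides in the heart, was at 32.8, 38.3, 4.82 and 15.5 CPM, with both libraries labelled 5-month above both labelled 22-month. Dnah9, a dynein heavy chain of motile cilia, went the other way, at 170, 246, 307 and 430 CPM. Ghrhr was counted in 79.7% and 77.001% of the members of the libraries labelled 5-month and Corin in 14.5% and 18.2%. Thinned to 2000 UMIs, 44.6% and 39.5% of members held a Ghrhr UMI. Lactotropes hold no Ghrhr or Pappa2 UMI by definition, so their level of these genes gives no background. A CPM of summed counts does not tell fewer nuclei with a transcript from fewer transcripts per nucleus.

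Promoter sequences were looked up for the 9 genes, because POU1F1 is the lineage factor of these cells and its preferred site holds the letters TATNCAT. RefSeq's table (build GRCm38.p6) matched 6 of the 9 genes: Pappa2, Corin, Dnah9, Mmp27, Mmp8 and Sdk2. The 250 bases before the start were searched for TATNCAT on both strands. It was found in 2 of the 6, Pappa2 and Dnah9, and in 2603 of all 32851 promoters of the table (7.92%). The promoters of Pappa2 (chr1:158958176-158958425, minus strand) and Dnah9 (chr11:66168552-66168801, minus strand) are printed with that of Prl (chr13:27057320-27057569, plus strand), the hormone gene of the sister lineage, each in the direction of its gene, with the matches in capitals. The match lies on the printed strand in Pappa2, beginning 205 bases before the start, and in Dnah9, beginning 217 bases before it. Prl holds a match on the printed strand beginning 47 bases before its start and another on the opposite strand beginning 148 bases before it. A match describes the letters only and says nothing of binding.
Pappa2 promoter: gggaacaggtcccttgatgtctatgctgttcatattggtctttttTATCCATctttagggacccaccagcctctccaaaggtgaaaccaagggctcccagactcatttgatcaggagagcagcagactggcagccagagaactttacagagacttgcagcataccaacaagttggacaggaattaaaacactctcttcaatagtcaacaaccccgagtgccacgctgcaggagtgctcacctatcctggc
Dnah9 promoter: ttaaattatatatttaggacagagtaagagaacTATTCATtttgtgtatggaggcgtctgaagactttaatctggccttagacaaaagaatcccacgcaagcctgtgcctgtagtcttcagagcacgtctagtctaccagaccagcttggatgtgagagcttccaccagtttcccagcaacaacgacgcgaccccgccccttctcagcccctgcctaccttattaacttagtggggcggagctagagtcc
Prl promoter: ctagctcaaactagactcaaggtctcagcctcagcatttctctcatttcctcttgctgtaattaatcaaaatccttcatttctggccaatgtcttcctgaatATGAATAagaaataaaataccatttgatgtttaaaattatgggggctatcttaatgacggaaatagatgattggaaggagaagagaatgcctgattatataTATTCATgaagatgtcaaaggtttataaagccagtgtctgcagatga

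Beyond the rule, the members of the libraries labelled 5-month differed from the remaining nuclei in genes of signalling, of excitability and of other functions. Of 7015 genes with at least 200 counts in the members of each library, 65 (0.927%) were at least 2-fold higher than in the other nuclei in both libraries and 93 (1.33%) at least 2-fold lower. The 65 include all 9 genes of the rule, which were higher by that choice. No test was made, because nuclei chosen by 9 genes differ from the rest by that choice, and the other nuclei still hold the Gh-rich nuclei just outside the rule. The 20 highest ratios outside the rule are described.

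Mettl21e, a methyltransferase gene, had the highest ratio outside the rule. It stood at 39.7 CPM in members against 10.7 in the other nuclei labelled 5-month males and at 20.8 against 5.24 in those labelled 5-month females, with 0.620 and 0.621 CPM in lactotropes and 0 in macrophage nuclei. Tcerg1l followed at 122 against 35.7 and 58.5 against 15.5 CPM. Rad18, an E3 ubiquitin ligase of DNA damage tolerance, was at 234 against 84.8 and 231 against 79.0 CPM, with 27.3 and 14.9 in lactotropes. Members were higher in both libraries for each of these genes, and lactotropes low.

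Receptor and signalling genes were among the leaders. Car10, a carbonic anhydrase-related gene, was the most abundant of the 20, at 894 against 326 and 1086 against 394 CPM. Grik4, a kainate receptor subunit, stood at 157 against 57.2 and 131 against 44.2 CPM, with 6.201 and 1.24 in lactotropes. Il1r1, the interleukin-1 receptor, was at 105 against 36.3 and 141 against 53.3 CPM, and macrophage nuclei held 9.75 and 8.31. Gli2, a transcription factor of the hedgehog pathway, was at 76.7 against 29.5 and 93.7 against 30.1 CPM, with 0 and 6.83 in lactotropes. Ugt8a, the enzyme that makes galactosylceramide, was at 44.1 against 14.6 and 35.9 against 8.03 CPM and was almost uncounted in lactotropes, at 0.620 and 0 CPM. Doc2b, a calcium sensor of exocytosis, and Kcnk10, a potassium leak channel, were also among the 20, at 36.8 and 34.4 CPM and at 43.8 and 24.6 CPM in members. The 20 hold Neb, Minar1, Rerg, Ripor2, Tent5c, Chrdl1, Chsy3, Cyyr1 and 2 unnamed gene models as well. Tent5c was higher in macrophage nuclei, at 58.5 and 91.4 CPM, than in members, at 56.7 and 37.9. Of the 20 genes, 13 were matched to a RefSeq promoter and 1, Rad18, held TATNCAT. Genes on chromosome 18, Chsy3 among them, were not looked up, so a gene without a match need not lack a promoter.

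Of 26 cyclic AMP genes with enough counts, 3 were at least 2-fold higher than in other nuclei in both libraries and none lower. Beside them stand 0.927% and 1.33% of all genes, the rule's own included. The list had median ratios of 0.928 and 1.03. The 3 were Adcy2, Prkar2b and Pde8b. Adcy2, an adenylyl cyclase, was at 312 against 138 CPM in the library labelled 5-month males and 335 against 119 in the library labelled 5-month females, with 14.9 and 4.35 in lactotropes. Prkar2b, a regulatory subunit of protein kinase A, was at 122 against 56.2 and 98.9 against 42.8 CPM. Gnas, the stimulatory G protein, did not set the members apart, at 2420 and 2513 CPM in members against 3061 and 2890 in the other nuclei. The glucocorticoid receptor Nr3c1 was at 208 and 218 CPM in members, 119 and 105 in the other nuclei and 19.2 and 15.5 in lactotropes, but macrophage nuclei also held 185 and 233. Pou1f1 was higher in lactotropes, at 831 and 730 CPM, than in members, at 567 and 460. Rxrg, a retinoid X receptor, was at 83.9 and 93.3 CPM in members and at 14.9 and 9.32 in lactotropes. Unc5c, a netrin receptor chosen after its values were seen, was at 543 and 558 CPM in members and at 13.6 and 13.7 in lactotropes.

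**Figure D2:**
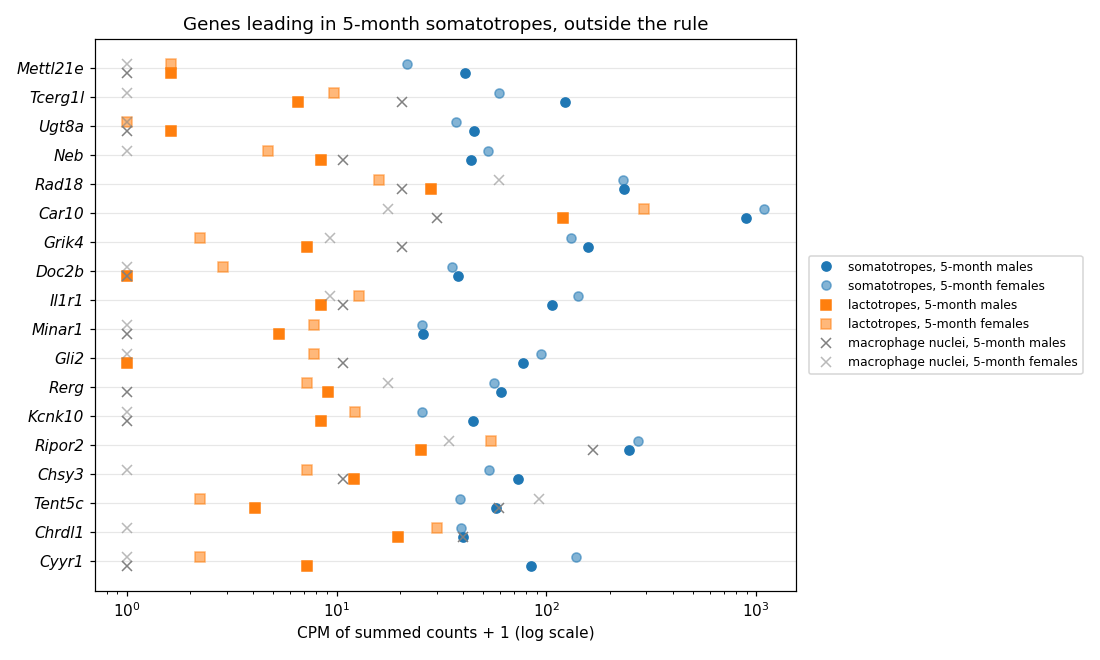
CPM of summed counts plus 1, on a log axis, for 18 genes outside the rule with the highest ratios of somatotropes over other nuclei in both libraries labelled 5-month. Filled blue circles are somatotropes, orange squares lactotropes and grey crosses macrophage nuclei, with the library labelled 5-month females in paler marks; Mettl21e, at 39.7 and 20.8 CPM in somatotropes, stands at 0.620 and 0.621 in lactotropes.

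Somatostatin and ghrelin receptors were counted sparsely. Sstr5 stood at 12.1, 3.28, 1.93 and 2.17 CPM, Sstr2 at 5.601, 1.83, 2.03 and 1.71, and Sstr3 at 5.81, 3.96, 3.96 and 2.51. Ghsr, the ghrelin receptor, did not exceed 1.45 CPM. The receptors for feedback were more abundant: the growth hormone receptor Ghr was at 26.1, 24.9, 39.3 and 21.9 CPM and the insulin-like growth factor receptor Igf1r at 332, 410, 590 and 721.

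Variation among the somatotropes of 1 library was ranked by the Fano factor. After thinning to 2000 UMIs, the Fano factor (variance over mean, near 1 for counting error alone) exceeded 2 in both libraries labelled 5-month for 39 of 5929 genes (0.658%), with a median of 1.03 over all of them. Gh, which the rule used, had the largest, at 87.5 and 94.3, and Malat1, an abundant nuclear RNA, had 21.6 and 22.8. A Fano factor is not scaled to the level of a gene. Gh had means of 418 and 288 UMIs in the thinned members, against 7.20 and 6.84 for Pomc. The ranking thus does not show that Gh varied most for its level. Among hormone transcripts of other cell types, Pomc had 22.0 and 20.6, Prl 14.0 and 8.94, and Cga, the common subunit of the glycoprotein hormones, 4.71 and 5.10. Without the nuclei that Scrublet called, Pomc had 4.14 and 8.35, Prl 6.63 and 7.75 and Cga 2.62 and 3.37, while Gh was at 82.1 and 89.3, and 33 genes exceeded 2. Mitochondrial transcripts varied as well, with 5.84 and 4.11 for mt-Co3.

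Some other variable genes were counted in few nuclei. Snhg11, a noncoding RNA of neuroendocrine cells, had Fano factors of 4.71 and 4.60 and was counted in 17.8% and 24.9% of the thinned members. Sgcz, a sarcoglycan gene, had 3.78 and 5.87 and was counted in 16% and 18.97%. Lsamp, an adhesion gene, had 3.88 and 5.59. Rbfox1, a splicing factor, had 3.43 and 3.58 and was counted in most members. Snhg11 and Sgcz were no less variable without the called nuclei, at 4.98 and 4.95 for Snhg11 and 4.08 and 8.19 for Sgcz. Among these remaining members, the 5% of nuclei with the most Sgcz held 74.2% and 75.9% of its UMIs, and the top 5% for Snhg11 held 62.3% and 55.2%. Nnat, an imprinted gene of endocrine cells, varied more evenly, with Fano factors of 6.45 and 5.58 and UMIs in 95.6% and 95.2% of members.

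Members were then compared across tertiles of their Gh share. Each library was ranked by the percent of UMIs from Gh and split into 3 groups of equal size, with 557 nuclei each in the library labelled 5-month males and 462, 462 and 463 in the library labelled 5-month females. The median Gh share was 11.7%, 19.8% and 30.1% in the lower, middle and upper tertile labelled males, and 7.14%, 12.6% and 21.8% in those labelled females. Other genes are given as CPM without Gh and Prl, so that a larger Gh share does not lower them by itself. Of 8267 genes with enough counts, 249 (3.01%) were at least 1.5-fold higher in the upper than in the lower tertile of both libraries and 203 (2.46%) at least 1.5-fold lower. The tertiles were made from a measured value, so no test was made and the genes named here were chosen after their values were seen, apart from those on the lists. The tertiles also differed in depth, with medians of 4649 and 3116 UMIs without Gh and Prl in the lower and upper tertile labelled males and 6537.5 and 3512 in those labelled females, and in called doublets, with 27.6% and 6.46%, and 38.3% and 7.13%.

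Ribosomal protein genes and part of the unfolded protein response list were higher where the Gh share was higher. Of 81 ribosomal protein genes compared, a group added after the values were seen, 72 were at least 1.5-fold higher in the upper tertile of both libraries and none lower. Over all genes these shares were 3.01% and 2.46%. Signs of nuclear quality moved with the tertiles too: from the lower to the upper tertile the share of mitochondrial UMIs went from 0.282% to 0.401% and from 0.407% to 0.530%, and the nuclear RNA Malat1 from 113919 to 97891 CPM and from 123438 to 108002. Their part in these differences was not tested. Rplp1 stood at 107, 152 and 232 CPM in the lower, middle and upper tertile of the library labelled 5-month males and at 102, 143 and 223 in those of the library labelled 5-month females. Of 20 genes of the unfolded protein response, 9 were higher and none lower, beside the same 3.01% and 2.46% of all genes. Hspa5, the main chaperone of the endoplasmic reticulum, stood at 277, 357 and 475 CPM over the tertiles labelled males and at 227, 261 and 365 over those labelled females. Pdia6, a disulfide isomerase, stood at 126, 181 and 250 and at 106, 111 and 181 CPM. Dnajb9, a co-chaperone of Hspa5, stood at 54.9, 72.8 and 98.3 and at 49.97, 65.3 and 96.8. The transcription factor Xbp1 was closer to even, at 113, 136 and 139 and at 89.0, 93.3 and 107 CPM. Cd63, a tetraspanin of late endosomes, was over 2-fold higher, at 322 against 145 and at 250 against 107 CPM in the upper and lower tertile.

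The same pattern was seen without the called nuclei and in the libraries labelled 22-month. Without Scrublet-called nuclei, 221 of 6115 genes were higher in the upper tertile, including 75 of 79 ribosomal protein genes and 8 of 16 unfolded protein response genes. The upper tertile over the lower tertile gave a ratio for Hspa5 of 1.72 and 1.61 in the libraries labelled 5-month, 1.92 and 1.89 there without the called nuclei, and 1.84 and 2.001 in both libraries labelled 22-month. Dnajb9 had ratios of 1.79, 1.94, 2.65 and 2.07 over the 4 libraries. Lower genes numbered 203 of 8267 with all members and 33 of 6115 without the called nuclei. Fewer genes had enough counts then, so these numbers do not tell how many ratios changed.

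Of the genes lower in the upper tertile, Lrp1b, a receptor of the lipoprotein family, stood at 462, 209 and 93.8 CPM over the tertiles of the library labelled 5-month males and at 896, 367 and 149 over those of the library labelled 5-month females, with ratios of 0.203 and 0.166. Without the called nuclei Lrp1b had ratios of 0.167 and 0.219. Dgkb, a diacylglycerol kinase, had ratios of 0.0983 and 0.0684, and 0.0537 and 0.0774 without them. Transcripts of another cell type moved with the called nuclei: Fshb, the follicle-stimulating hormone subunit of gonadotropes, was at 130 and 42.4 CPM in the lower and upper tertile labelled males, and its ratio in the library labelled females went from 0.447 to 1.32 without the called nuclei.

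Some other listed genes differed little across the tertiles. Pou1f1 was at 677, 749 and 732 CPM over the tertiles labelled males and at 511, 537 and 556 over those labelled females. Gnas was at 3076, 3010 and 3083 and at 2845, 2862 and 3015 CPM. The secretory granule proteins Chgb and Scg2 had ratios of 1.03 and 0.9999 and of 0.980 and 0.995. Of 36 granule and exocytosis genes, none were higher in the upper tertile of both libraries and 3 were lower, with median ratios of 0.984 and 1.006. Of 11 lineage transcription factors, none were higher and 2 lower, and of 3 receptors of the growth hormone axis none were higher and 1 lower. Over all genes, 3.01% were higher and 2.46% lower. Without the called nuclei, none of 8 lineage factors and none of 3 receptors passed either way. Then 2 of 34 granule and exocytosis genes were higher and 1 lower. The rule's own genes were higher with Gh, 4 of 9 past 1.5-fold in both libraries, among them Corin at 33.1, 35.8 and 62.0 and at 27.9, 47.6 and 77.2 CPM. None of the 9 passed without the called nuclei, where Corin had ratios of 1.48 and 1.92.

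**Figure D3:**
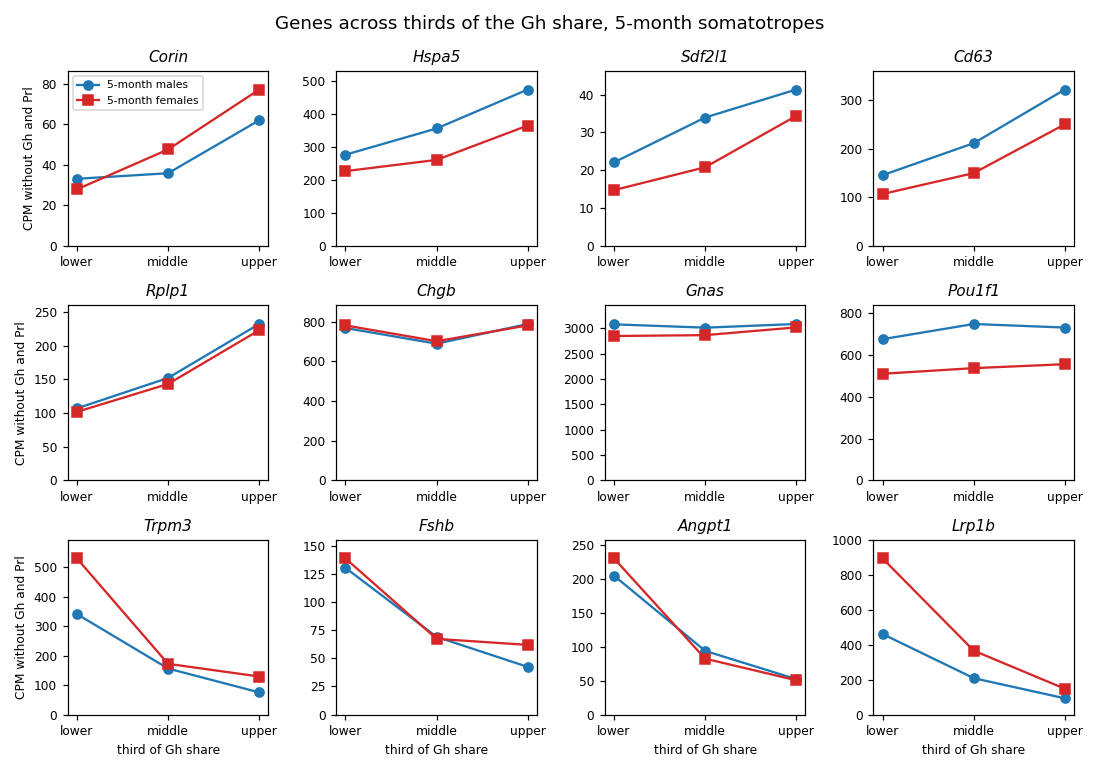
CPM without Gh and Prl, on linear axes from 0, for 12 genes over the lower, middle and upper tertile of the Gh share in somatotropes of the libraries labelled 5-month males (circles) and 5-month females (squares). Each point is a sum over the nuclei of 1 tertile of 1 library; Hspa5 goes from 277 to 475 and from 227 to 365 CPM, Pou1f1 is flat and Lrp1b goes from 462 to 93.8 and from 896 to 149.

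The somatotropes of the libraries labelled 5-month were compared with those of the libraries labelled 22-month, taken by the same rule, 2 libraries against 2. The series is about ageing of pituitary stem cells, and the comparison also sets libraries with Y-linked transcripts against libraries with Xist. By the quasi-likelihood test of edgeR, 104 of 16179 genes (0.643%) passed a Benjamini-Hochberg adjusted p of 0.05, of which 18 (0.111%) stood higher at the labelled age of 5 months and 86 (0.532%) lower. The values of both libraries labelled 5-month lay on the same side of both labelled 22-month for 50.7% of all genes tested, 29.3% above and 21.4% below, so a lack of overlap alone sets no gene apart. The Y-linked genes made up 4 of the 18. With 2 libraries a side the calls rest on little spread: 161 genes were called without the library labelled 5-month males and 361 without the library labelled 5-month females, 1087 with no filter on low counts, 55 without the called doublets and 64 when Gh had to exceed 2 times Prl. DESeq2 called 382.

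Among the genes called, 8 named ones were higher in the libraries labelled 5-month. Ptchd4, a patched-domain membrane protein, led at 22.4, 36.1, 1.64 and 2.63 CPM. Both libraries labelled 5-month were far above both labelled 22-month, a log2 difference of 3.74 ± 0.33 (SE, edgeR adjusted p = 0.00764). Ptchd4 had no UMI in all 4 sets of macrophage nuclei, where 1 UMI made 9.75, 8.31, 2.86 and 3.09 CPM, so a low level there would be missed. In lactotropes Ptchd4 was between 1.74 and 4.35 CPM. Ryr3, a calcium release channel, stood at 59.6, 75.5, 25.5 and 18.1 CPM (1.59 ± 0.21, adjusted p = 0.0329). Opcml, an adhesion gene, stood at 56.4, 54.0, 22.1 and 16.5 CPM (1.48 ± 0.19, adjusted p = 0.0310). The labelled ages did not overlap for either gene, but the adjusted p of both rose above 0.05 without the library labelled 22-month females, at 0.0544 for Ryr3 and 0.0584 for Opcml. Ryr3 was also lost when Gh had to exceed 2 times Prl (0.0765).

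Hk2, a hexokinase, was at 40.6, 46.8, 13.5 and 15.4 CPM, and macrophage nuclei held more, at 205, 91.4, 68.7 and 108. Per3, a repressor of the circadian clock, was at 216, 219, 102 and 113 CPM (0.98 ± 0.14, edgeR adjusted p = 0.0378), with 265, 219, 128 and 106 in lactotropes. None of the sources used here gives the hour at which glands were taken. The list of 22 clock genes had a median log2 difference of 0.16, beside 0.02 over all genes. Per3 was its only gene called, beside 0.643% of all genes. Without single libraries its adjusted p ranged from 0.0292 to 0.0947, and it was lost without the library labelled 5-month males, without either library labelled 22-month, and without the Scrublet-called nuclei (0.0719). Fshb stood at 69.0, 88.4, 27.6 and 19.1 CPM (1.71 ± 0.21, edgeR adjusted p = 0.0296), and macrophage nuclei held 224, 116, 25.7 and 24.7. Without the Scrublet-called nuclei its adjusted p was 0.0796. Dynlt1c and Mt1, a metallothionein, completed the 8, with log2 differences of 1.24 ± 0.17 and 1.11 ± 0.16. Dynlt1c was not called when the library labelled 22-month males was left out (edgeR adjusted p = 0.0827) or without the Scrublet-called nuclei (0.0719). Mt1 was not called when any 1 library except that labelled 5-month females was left out, with an adjusted p of up to 0.103, or without the Scrublet-called nuclei (0.0567).

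The 10 named genes that were lower in the libraries labelled 5-month moved in lactotropes and macrophage nuclei too. Reln, a secreted glycoprotein of neuronal migration, was at 1.32, 1.45, 136 and 180 CPM (-6.85 ± 0.25, edgeR adjusted p = 9.47e-05). In lactotropes Reln was at 3.10, 1.86, 569 and 1107 CPM, and in macrophage nuclei at 9.75, 0, 114 and 278. The galanin gene Gal, a neuropeptide that estrogen raises in the pituitary, was at 3.77, 2.41, 48.9 and 75.1 CPM (-4.36 ± 0.32, adjusted p = 0.00307), with 0, 16.6, 74.4 and 67.9 in macrophage nuclei. Levels in macrophage nuclei were thus of the size seen in somatotropes for both genes.

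Pak7, a p21-activated kinase, was lower in macrophage nuclei than in somatotropes: it stood at 2.04, 5.31, 144 and 206 CPM in somatotropes (-5.61 ± 0.38, edgeR adjusted p = 0.00201) and at 0, 0, 65.8 and 108 in macrophage nuclei. Rxfp1, the relaxin receptor, was at 3.36, 6.56, 76.8 and 81.8 CPM (-4.03 ± 0.27), and at 19.5, 8.31, 100 and 133 in macrophage nuclei. Crhbp, the binding protein of corticotropin-releasing hormone, had 0, 2, 278 and 209 counts. Zfp804a, Aebp1, Slc35f4, Ano4 and Sema3a made up the rest, with log2 differences from -4.52 to -2.89. Zfp804a was not called without the Scrublet-called nuclei (edgeR adjusted p = 0.123). With Gh above 2 times Prl, Slc35f4 (0.058) and Sema3a (0.0708) lost their calls, and Sema3a also with 4 of 9 genes (0.0549). Over all 18 named genes, 4 lost the call with Gh above 2 times Prl, 3 with 4 of 9 genes and 1 with autosomal genes only. Not all of these losses are listed by gene here.

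Over all 86 lower genes, 78 (90.7%) were also lower in both libraries labelled 5-month than in both labelled 22-month in lactotropes and 58 (67.4%) in macrophage nuclei. Over all genes tested these shares were 22.1% and 18.3%. Both libraries labelled 5-month lay above both labelled 22-month for 13 of the 18 higher genes (72.2%) in lactotropes and 9 (50%) in macrophage nuclei. They did so for 32.3% and 13.9% of all genes tested. Lactotropes held a higher mean CPM than somatotropes in the libraries labelled 22-month for 62 of the 86 genes (72.1%), against 59.8% of all genes tested. The lactotropes themselves numbered 373, 329, 2282 and 1651 nuclei by the rule used for them. The part of transcripts from other nuclei in these differences was not tested.

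**Figure D4:**
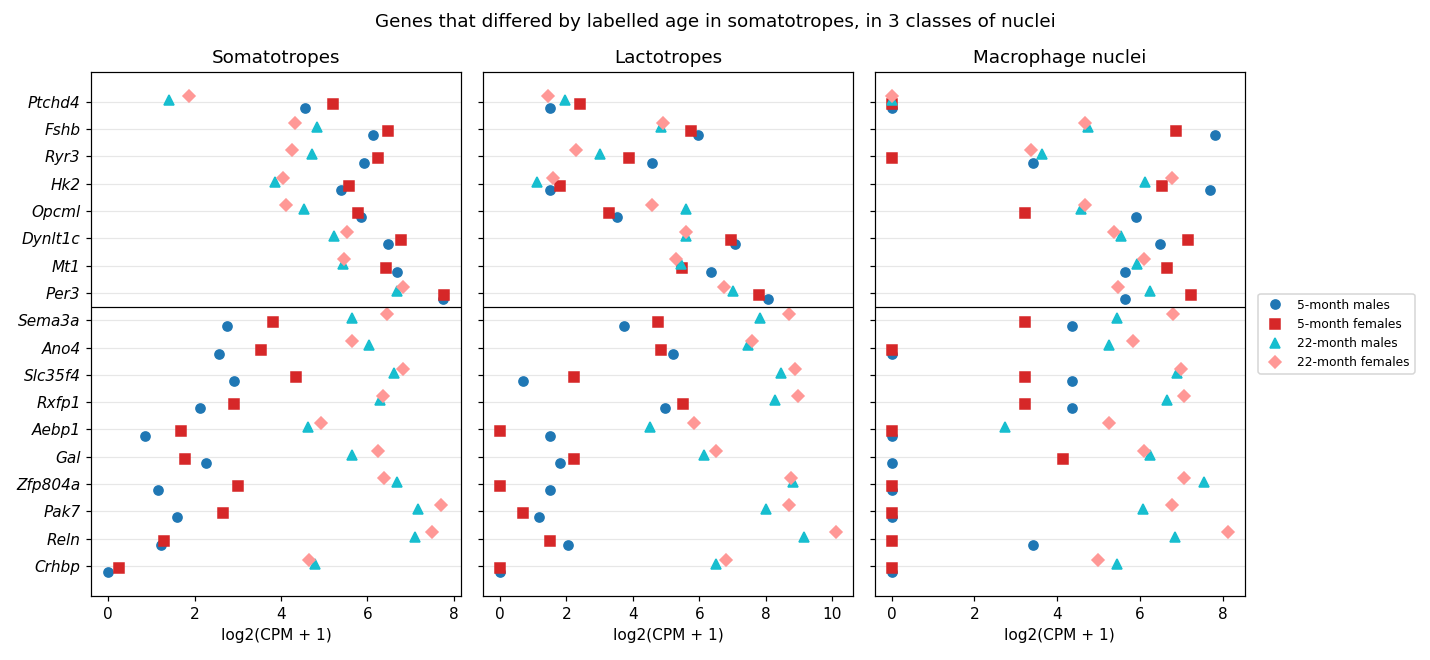
log2(CPM + 1) of the 18 named genes that differed by labelled age in somatotropes, shown in somatotropes (left), lactotropes (middle) and macrophage nuclei (right) of the 4 labelled libraries; genes above the line were higher and genes below it lower in the libraries labelled 5-month. Each mark is 1 library; Ptchd4 is at 0 in all macrophage nuclei, while Reln, at 136 and 180 CPM in somatotropes labelled 22-month, is at 114 and 278 there.

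Genes of growth hormone control were read against the 0.643% of all genes called, a share at which a list of this size may hold no call. Of 10 receptors of the growth hormone axis, edgeR called none (3 at an unadjusted p under 0.05, 1 by DESeq2), with a median log2 difference of 0.06. Igf1r came nearest, at 332, 410, 590 and 721 CPM (-0.86 ± 0.18, edgeR adjusted p = 0.112). Of 21 lineage transcription factors none were called (3 unadjusted, 0 by DESeq2), and Pou1f1 was at 567, 460, 392 and 375 CPM (0.38 ± 0.18, edgeR adjusted p = 0.344). Of 35 cyclic AMP genes none were called by edgeR (9 unadjusted, 2 by DESeq2). Of 41 granule and exocytosis genes none were called (11 unadjusted, 3 by DESeq2 in either direction), and Chga, chromogranin A, was at 202, 195, 125 and 68.8 CPM (0.998 ± 0.26, edgeR adjusted p = 0.183). Of 23 unfolded protein response genes none were called (3 unadjusted, 1 by DESeq2), of 12 axonemal dynein heavy chains none (3 unadjusted, 0 by DESeq2) and of 14 matrix metalloproteinases none (2 unadjusted, 0 by DESeq2). Of 57 ion channel genes 1 was called, Ryr3. A miss does not show that these genes were equal.

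The lists that follow also stand beside 0.643% of all genes called in either direction. Within the JAK-STAT list, Stat5a, a transcription factor activated by growth hormone and prolactin, was the only 1 of 12 genes called. It was at 17.7, 19.4, 39.2 and 52.2 CPM (-1.34 ± 0.19, edgeR adjusted p = 0.0381). Leaving out single libraries moved its adjusted p between 0.0233 and 0.0877, and the call was lost without the library labelled 22-month females. Its partner Stat5b stood at 132, 157, 225 and 250 CPM (-0.76 ± 0.15, edgeR adjusted p = 0.0970), and its target Cish, a feedback inhibitor, at 23.7, 17.6, 9.36 and 13.8. Of 14 nuclear hormone receptors, 1 was called, the progesterone receptor Pgr, at 13.1, 16.1, 32.7 and 48.3 CPM (-1.51 ± 0.23, edgeR adjusted p = 0.0478; 0.0173 to 0.0904 with single libraries left out, lost without the library labelled 5-month males and without the library labelled 22-month females). Pgr is also an estrogen-responsive gene, and with Gal made 2 of 8 such genes lower, where the list's median log2 difference was -1.004, beside 0.532% of all genes called lower and a median of 0.02. Lactotropes held more Pgr in all 4 libraries, at 34.1, 21.1, 79.9 and 130 CPM. Diaph3, a formin, was the only 1 of 7 cell cycle genes called, at 50.5, 59.0, 98.2 and 104 CPM (-0.93 ± 0.14, edgeR adjusted p = 0.0468). Its call was lost without any of 3 libraries, all but that labelled 5-month females, with an adjusted p of up to 0.132.

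Whether the difference by labelled age was the same in somatotropes and lactotropes was tested by an interaction with the library as a block. edgeR called 383 of 17255 genes (2.22%), 204 (1.18%) with a difference, 5-month minus 22-month as labelled, that was more positive in somatotropes and 179 (1.04%) with one more positive in lactotropes. It called 703 without the library labelled 22-month males and 636 without that labelled 22-month females. Ntrk3, a neurotrophin receptor, stood at 183, 175, 79.1 and 173 CPM in somatotropes and at 1.86, 5.59, 45.5 and 109 in lactotropes, the largest such difference toward somatotropes among the genes called, at 4.90 ± 0.29 on the log2 scale. Plxna4, a plexin, stood at 94.7, 150, 132 and 230 CPM in somatotropes and at 6.82, 3.11, 130 and 256 in lactotropes (4.71 ± 0.29). Unc5c was level in somatotropes, at 543, 558, 534 and 712 CPM, and differed in lactotropes, at 13.6, 13.7, 131 and 251 (3.61 ± 0.24). These 3 genes, chosen after their values were seen, mark somatotropes off from lactotropes in the libraries labelled 5-month. In those labelled 22-month Ntrk3 and Unc5c did so less, and Plxna4 did not. Macrophage nuclei labelled 5-month held more Plxna4 than somatotropes, at 293 and 357 CPM. Of listed genes, Pcsk2, a prohormone convertase, was level in somatotropes at 173, 238, 194 and 188 CPM against 81.2, 139, 350 and 193 in lactotropes (1.42 ± 0.25, edgeR adjusted p = 0.0209). Igf1r differed less in somatotropes than in lactotropes, where it stood at 265, 319, 654 and 908 CPM (0.63 ± 0.13, edgeR adjusted p = 0.0443).

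The libraries labelled 5-month males and 5-month females were compared last, with 1 library each and no test. Both carried Y-linked transcripts, at 91.7% and 92.4% of members. Of 10475 genes with at least 100 counts in the higher library, 335 (3.2%) differed at least 2-fold, 62 (0.592%) higher in the library labelled males and 273 (2.61%) in the library labelled females. The split depended on Gh, which took a larger part of the UMIs in the library labelled males: with CPM taken without Gh and Prl it was 94 against 192.

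Dnah17, a dynein heavy chain, had the largest ratio, at 60.9 CPM (598 counts) in the library labelled 5-month males and 1.45 CPM (15 counts) in the library labelled 5-month females, 42.1-fold (exact binomial interval 25.3 to 75.6, counting error only). It was at 38.9 and 35.5 CPM in the libraries labelled 22-month, so the library labelled 5-month females stood apart from the other three. Lactotropes held 53.9 and 0.621 CPM and macrophage nuclei 58.5 and 0 in the same order, so the difference was not limited to somatotropes. Glp1r, the receptor of glucagon-like peptide 1, was at 17.8 and 2.41 CPM (7.39-fold, 4.84 to 11.7), with 4.34 and 5.59 in lactotropes. Slc1a7, a glutamate transporter, was at 24.8 and 4.15 CPM (5.99-fold, 4.32 to 8.49), with 0 and 0.621 in lactotropes. With so few counts of Slc1a7 in lactotropes, a ratio of that gene there was not detectable at this depth. Sstr5, the somatostatin receptor named above, had 119 and 34 counts, 3.69-fold (2.50 to 5.58). Col24a1, a collagen gene, was 4.44-fold higher.

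Immediate-early genes, transcripts induced within minutes by stimulation or by handling of tissue, were higher in the library labelled 5-month males. Of 9 with enough counts, 5 passed 2-fold, all in that direction, beside 0.592% of all genes. The median log2 ratio of the list was 1.23, beside -0.04 over all genes. Junb was at 69.8 and 15.7 CPM (4.43-fold, 3.73 to 5.29), Fos at 15.7 and 2.51 (6.25-fold, 4.11 to 9.87) and Ier2 at 29.7 and 7.05. Klf6 was even, at 14.4 and 14.3 CPM. The 22 genes of the list summed to 393, 197, 182 and 196 CPM in somatotropes, so only the library labelled 5-month males stood out, and to 1395, 631, 532 and 401 in macrophage nuclei. The same library was highest in both classes.

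Toward the library labelled 5-month females, Kcnq3, a potassium channel subunit, was at 4.99 CPM in the library labelled 5-month males and 44.6 in the library labelled 5-month females (a ratio of 0.112, 0.0816 to 0.1505), and at 22.2 and 125 in those labelled 22-month males and 22-month females. Cpa6, a carboxypeptidase, was at 7.23 and 48.6 CPM and at 16.1 and 65.8, so both genes were higher in the libraries labelled females at each labelled age. The labels of 2 of these libraries go against their transcripts, so this is no contrast of sexes, and with those 2 labels exchanged it would be a contrast of ages. Il1rapl2 was at 11.7 and 65.7 CPM in somatotropes, but macrophage nuclei held 9.75 and 357. Frmpd4 likewise was at 9.88 and 53.1, with 234 and 631 in macrophage nuclei. Gabrb2, a GABA receptor subunit, and Grm5, a metabotropic glutamate receptor, had ratios of 0.181 and 0.205. Igkc, an immunoglobulin chain of plasma cells, had 0 and 130 counts. Of 43 ion channel genes, 5 passed 2-fold toward the library labelled females and 1 toward males, and the list's median log2 ratio was -0.34, beside 2.61% and 0.592% of all genes and a median of -0.04. Greb1, an estrogen-responsive gene, was at 26.2, 82.2, 212 and 335 CPM.

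**Figure D5:**
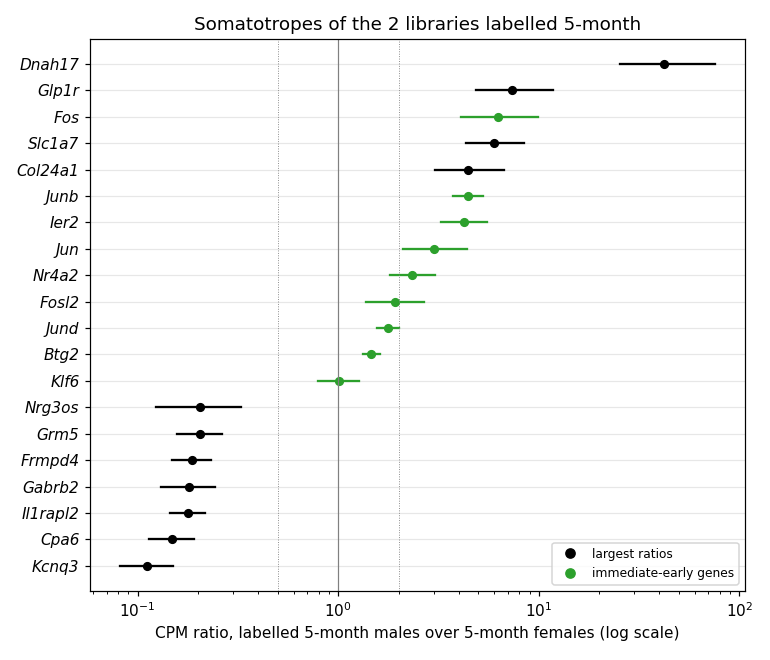
Ratio of CPM in somatotropes of the library labelled 5-month males over the library labelled 5-month females, on a log axis, for the genes with the largest ratios (black) and the immediate-early genes with enough counts (green). Points are ratios and lines exact binomial 95% intervals for counting error, and dotted lines mark 2-fold; Dnah17 lies at 42.1 and Kcnq3 at 0.112, and Igkc, with 0 counts in 1 library, is left out.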

How the data were processed

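The deposited matrices hold raw UMI counts per gene and barcode for 4 libraries, made with Cell Ranger 7.0.1 per the file headers and build mm10 per the submitters' processing notes. None of the sources used here says whether introns were counted. Of 32285 genes, 32158 had a position in GENCODE M21. Barcodes had 500 genes or more and under 5% mitochondrial UMIs. Members, lists and comparison classes were chosen with earlier results of these data known. Lactotropes had a Drd2 UMI, Prl above every other hormone gene and no Ghrhr or Pappa2 UMI.

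Counts were summed over members in each library and tested with edgeR 4.0.16 (R 4.3.3) by glmQLFTest, with TMM, filterByExpr and Benjamini-Hochberg adjustment over all genes kept. Rule genes, Gh and Prl were fitted and never counted as calls. The fit of labelled age had 2 residual degrees of freedom. Labelled sex was no term, because transcripts go against 2 labels. Standard errors are the log2 difference over the square root of F. On simulated data the fits were checked for recovery of known changes. DESeq2 1.42.0, Scrublet in scanpy 1.11.5 (score 0.15) and the other settings served as alternatives. Ratios of 2 single libraries have exact binomial 95% intervals, without a test.

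Genes were named by fixed rules: by labelled age, up to 10 each way with the largest log2 difference among those called, at 20 CPM or more in both libraries of the higher group, with no overlap, leaving out sex-linked check genes and unnamed gene models, which left 8 higher and 10 lower; between the libraries labelled 5-month, the 8 largest ratios each way at 100 counts or more; against other nuclei, the 20 highest values of the lower of both library ratios at 200 counts or more; by Fano factor, the 15 highest at a mean of 0.05 or more; and list members. Genes outside these rules are marked as chosen after their values were seen. Barcodes shared between libraries numbered 14 to 43 per pair, with 0 to 2 of them members in both. A result that these rules would name is not reported here.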

Additional observations from a re-analysis of the deposited data

Results flagged for a closer look

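For 6 of the named genes, the difference by labelled age in somatotropes was not the difference in lactotropes, by the interaction test of edgeR. Values are the difference in somatotropes minus that in lactotropes on the log2 scale, libraries labelled 5-month minus 22-month. Ptchd4 had 3.42 ± 0.56 (edgeR adjusted p = 0.0134). It was higher in somatotropes labelled 5-month and stood between 1.74 and 4.35 CPM in all lactotropes. Opcml had 3.39 ± 0.29 and moved in opposite directions, with a log2 difference of 1.48 in somatotropes and -1.97 in lactotropes. Slc35f4 had 4.54 ± 0.31, Zfp804a 4.36 ± 0.73, Pak7 2.89 ± 0.55 and Sema3a 1.21 ± 0.18. These 4 were lower in the libraries labelled 5-month in both classes, by more in lactotropes. Lactotropes labelled 5-month held only 0 to 3.73 CPM of Slc35f4, Zfp804a and Pak7. There 1 UMI made 0.620 and 0.621 CPM, so the sizes of these differences rest on few UMIs. In macrophage nuclei of the libraries labelled 22-month the 4 genes stood between 42.9 and 186 CPM, and the part of such background in the differences was not tested.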

How the results depend on the processing

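The alternatives for doublets in the Gh tertiles and Fano factors were chosen after seeing the data. Genes called by labelled age, 104, numbered 1087 without a filter on low counts, 55 without Scrublet-called nuclei, 64 with Gh above 2 times Prl, 382 by DESeq2 and 323 with labelled sex as a term, and 80 to 361 with single libraries left out. The interaction, 383, gave 634 without the filter and 274 to 703 with single libraries left out. The ratio of the libraries labelled 5-month gave 1006 genes with 20 counts, against 335. Genes lower in the upper Gh tertile numbered 33 of 6115 with enough counts without Scrublet-called nuclei, against 203 of 8267. Member shares, in the order of the report, were 19.4%, 16.5%, 11.5% and 12.5% without Scrublet-called nuclei, 12.1%, 11.5%, 7.71% and 9.29% with 4 of 9 genes, 7.32%, 6.19%, 3.98% and 4.71% thinned, 22.0% and 19.8% with 1000 genes in the libraries labelled 5-month, and 8.93% and 12.1% with Gh above 2 times Prl in those labelled 22-month. The causes were not tested. The named genes kept their call in 230 cases, lost it in 22 and turned direction in 0. No paired analysis was possible because every library has replicate number 1, so no groups share 2 numbers. With 1 pool a group and 2 libraries a side, neither mice nor batches could be assessed, and depth limits Sstr2, Sstr3 and Ghsr.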

Other observations

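Galntl6, a glycosyltransferase-like gene, was higher in the libraries labelled males at each labelled age, at 144 and 38.0 CPM at 5 months and 313 and 63.8 at 22 months, males before females as labelled. No test was made, and it was chosen after its values were seen. Scn9a, a sodium channel gene, was at 8.25, 28.1, 5.21 and 1.83 CPM, highest in the library labelled 5-month females. Rims1, a gene of the active zone, was at 56.6, 22.3, 63.4 and 16.9 CPM, higher in the libraries labelled males at each labelled age. With the labels of 5-month females and 22-month males exchanged, these contrasts of Galntl6 and Rims1 would be by age.

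Within nuclei thinned to the same depth, the mitochondrial transcripts mt-Atp6 and mt-Co3 were correlated, with Pearson coefficients of 0.780 over the members labelled 5-month males and 0.738 over those labelled 5-month females. Gpc6 and Lsamp, adhesion genes, had 0.293 and 0.415, and Fam155a and Gh -0.335 and -0.338. These are descriptions over nuclei of 1 library each, which share a library and a fixed total, with no test.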
